A study of Mus musculus with 6 samples.

Results

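Regulators of G-protein signalling (RGS proteins) were followed at the transcript level in primary mouse liver sinusoidal endothelial cells exposed to cyclic hydrostatic pressure. The 10 genes were taken by symbol from the deposited count tables (Rgs1, Rgs2, Rgs3, Rgs4, Rgs5, Rgs10, Rgs12, Rgs14, Rgs16 and Rgs19), out of 24421 symbols listed. All 10 had counts, and 9 had enough for the test; Rgs4 did not. Sinusoidal endothelial cells line the blood channels of the liver, and here came from animals whose genotype is labelled wild, were picked with CD146 beads, were plated on collagen I overnight and went without serum for 6 h. The pressure group, 3 samples, was then put through cycles of absolute pressure, from 101 up to 135 kPa, repeated at 0.01 Hz over 8 h; the control group, 3 samples, carries no label for handling over those hours, so time in culture and pressure cannot be told apart. No source used here gives animal age or strain, or says that replicate samples were separate animals or cultures. The p-values therefore set the group difference only against the spread among these samples, and that spread may be technical.

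A receptor coupled to a heterotrimeric G protein makes the alpha subunit exchange GDP for GTP, and signalling lasts until that GTP is hydrolysed. RGS proteins bind the active alpha subunit and speed this hydrolysis, so they shorten the signal. The small R4 members (Rgs1, Rgs2, Rgs3, Rgs4, Rgs5 and Rgs16) act on Gi and Gq, with Rgs2 known for its preference for Gq. The R12 members (Rgs10, Rgs12 and Rgs14) act mainly on Gi, and the RZ member Rgs19 binds Gi-class subunits. In endothelium the receptors upstream include those for sphingosine-1-phosphate, thrombin and chemokines.

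Libraries held between 12922959 and 18655749 counts. Levels are CPM, counts scaled to the library's size and its TMM factor, so that 1 CPM stands for 12.2 to 20.02 counts. Pressure replicate 3 stood furthest from its group (correlations of log2 CPM of 0.989 and 0.991 with the other pressure libraries, which gave 0.996 with each other). Markers of sinusoidal endothelium were present in all libraries, with a summed level of 8 genes of 2681 to 3014 CPM under pressure and 4597 to 4735 CPM in controls. Of those 8 genes 0 rose and 6 fell at an adjusted p under 0.05. Over all genes tested, 33.7% rose and 35.1% fell, which is the background for each marker count here and below. The 8 Kupffer cell and macrophage markers were also abundant, at 5025 to 5421 CPM under pressure and 5280 to 5797 CPM in controls, with 2 higher and 2 lower. Of other lists, 1 general endothelial gene was higher and 3 lower of 6 tested, 1 dendritic cell gene higher and 1 lower of 3, 2 of 3 hepatocyte genes higher (summed 13.9 to 17.1 CPM under pressure and at most 10.1 CPM in controls), both cholangiocyte genes tested higher, and neither platelet gene passed. Low-count genes among those called higher in the dendritic cell, hepatocyte and cholangiocyte lists met the test's count filter mainly through the pressure libraries. Their direction was thus partly set by the filter. In such bulk samples, fewer cells of a type and less RNA per cell cannot be told apart.

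Under pressure, Rgs1 and Rgs2 rose, and Rgs3, Rgs10, Rgs12, Rgs14 and Rgs19 fell. Rgs5 and Rgs16 did not pass the test. Of the 9 genes tested, 2 (22.2%) were higher and 5 (55.6%) lower at an adjusted p under 0.05 (edgeR's quasi-likelihood test, Benjamini-Hochberg adjustment over 12892 genes). Across all genes tested, 33.7% were higher, 35.1% lower and 68.8% called in either direction, against 77.8% (7 of 9) of the RGS genes, so a change in most of them is near what this comparison gave for genes at large. The median log2 fold change was -0.53 over the 9 genes and -0.015 over all genes tested. With a log2 fold change of at least 1 in size also required, 1 RGS gene was higher (9.64% of all genes tested) and 3 were lower (13.7%). The 3 pressure values lay above the 3 control values for 2 RGS genes and below them for 5, while over all genes tested 34.9% lay above, 37% below and 71.9% one or the other. By subfamily, the 5 tested R4 genes gave 2 higher, 1 lower and 2 that did not pass, while all 3 R12 genes and the RZ gene were lower. Rgs14, of the R12 genes, met the test's count filter only through the control libraries, so its place in these counts is partly set by the filter. These 7 calls and their directions held under every scaling and with each library left out. The all-gene split moved with the scaling, to 3129 higher and 5887 lower with library totals only against 4347 higher and 4524 lower with TMM factors. That setting moved the median log2 fold change of all genes by -0.21, and upper-quartile factors moved it by -0.11.

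**Figure D1:**
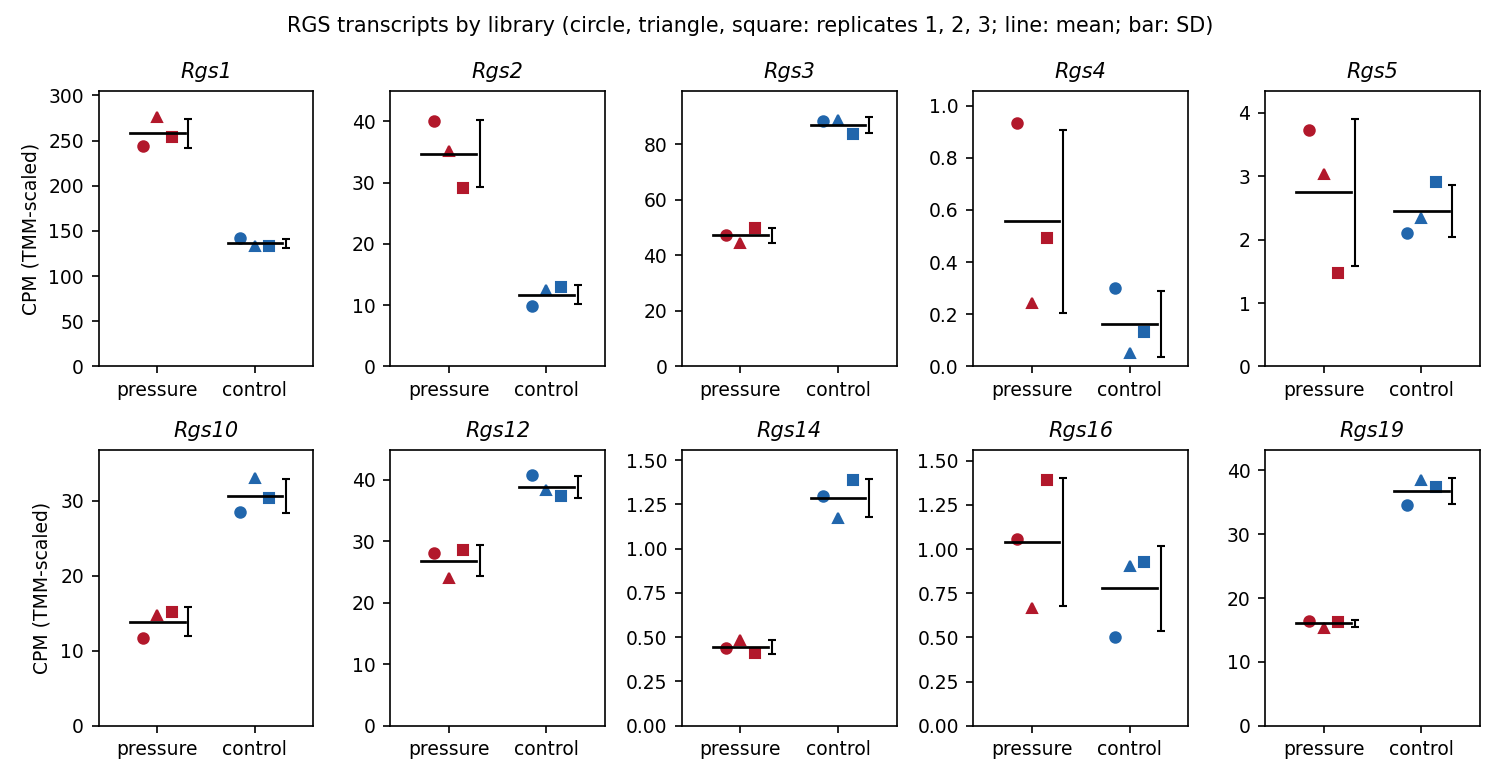
Level of each RGS gene in CPM (vertical axis, linear, from 0) in the 3 pressure libraries (red, left) and the 3 control libraries (blue, right), with the mean as a line and the SD as a bar. The groups do not overlap for Rgs1 and Rgs2 (pressure above) and for Rgs3, Rgs10, Rgs12, Rgs14 and Rgs19 (pressure below), and overlap for Rgs4, Rgs5 and Rgs16.

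Rgs2, which restrains Gq signalling and in mice is known for its part in blood pressure control, had the largest rise. Its level was 40.0, 35.1 and 29.1 CPM in the pressure libraries, against 9.89, 12.4 and 12.9 CPM in the control libraries. Every pressure library lay above every control library, with 29.1 CPM in the lowest pressure library against 12.9 CPM in the highest control library. The log2 fold change was 1.57 ± 0.14 (standard error), with a 95% interval of 1.26 to 1.89, which is a 2.98-fold higher level (edgeR adjusted p = 4.66e-06).

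Rgs1, which in lymphocytes damps the response to chemokine receptors, stood at 244, 276 and 254 CPM under pressure, against 142, 134 and 134 CPM in controls. The groups were far apart relative to their spread, with a mean of 258 ± 16.2 CPM under pressure and 136 ± 4.86 CPM in controls (SD, n = 3 each). The log2 fold change was 0.92 ± 0.076 (95% interval 0.75 to 1.09; edgeR adjusted p = 2.51e-06), or 1.89-fold. Since Rgs1 is best known from leukocytes, markers of these cells were read beside it. The 9 T and NK cell markers summed to 2.87 to 4.42 CPM under pressure and 5.95 to 7.64 CPM in controls, with 2 of 4 tested lower and 0 higher. The less abundant of those 2 met the test's count filter only through the control libraries. The 5 B cell markers summed to 1.15 to 3.99 CPM under pressure and 1.20 to 1.59 CPM in controls, and none had enough counts for the test. Neutrophil markers were near the limit of detection, with S100a9, Retnlg and Camp at 0 in all libraries. Kupffer cell markers were abundant as given above, and their part in the Rgs1 level was not tested.

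Rgs3 was the R4 gene that fell. It encodes several isoforms that act on Gi and Gq. Its level was 47.4, 44.5 and 50.0 CPM in pressure libraries, against 88.6, 88.6 and 83.7 CPM in control libraries. The log2 fold change was -0.88 ± 0.079 (95% interval -1.06 to -0.70; edgeR adjusted p = 4.59e-06), with groups that did not overlap. Rgs1 and Rgs3 can be set against each other within a library, free of any scaling. The ratio of Rgs1 counts to Rgs3 counts was 5.15, 6.19 and 5.08 under pressure, against 1.604, 1.51 and 1.595 in controls.

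Rgs5, Rgs4 and Rgs16, whose proteins are known to be short-lived because of a cysteine behind the initiator methionine, gave no call. Rgs5, a transcript typical of pericytes and other mural cells, had 3.74, 3.04 and 1.47 CPM under pressure, against 2.10, 2.35 and 2.91 CPM in controls. The pressure libraries spanned the whole control range, and pressure replicate 3, with 18 counts, held the lowest value of the 6. The log2 fold change was 0.22 with a 95% interval of -0.43 to 0.86 (edgeR adjusted p = 0.521). Leaving out 1 pressure library moved it to between -0.049 (without pressure replicate 1) and 0.48 (without pressure replicate 3, adjusted p = 0.0529). Rgs16 stood at 1.06, 0.669 and 1.39 CPM under pressure and 0.4996, 0.907 and 0.925 CPM in controls, with overlapping groups and a log2 fold change of 0.40 (95% interval -0.41 to 1.21; edgeR adjusted p = 0.344). These intervals include both no change and a doubling for Rgs16.

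Rgs4 was counted 15, 4 and 6 times in the pressure libraries and 6, 1 and 2 times in the control libraries. Those counts are too few for the main test, and the groups overlap at 0.243 CPM for the lowest pressure library and 0.300 CPM for the highest control library. Without the low-count filter, the log2 fold change was 1.68 with an edgeR adjusted p = 0.0433, and Rgs4 was then the only further member called. DESeq2, which also tested it, gave 1.78 with an adjusted p = 0.0877 and did not call it. Mural cell markers, which bear on both Rgs4 and Rgs5, were low: 8 pericyte and smooth muscle genes summed to 18.6 to 21.1 CPM under pressure and 34.8 to 39.8 CPM in controls, with 0 higher and 2 lower of 3 tested. Cnn1 and Higd1b were at 0 in every library. The 8 stellate cell markers summed to 171 to 194 CPM under pressure and 157 to 169 CPM in controls, with 1 higher and 1 lower. The part of mural or stellate cells in the Rgs4 and Rgs5 levels was not tested.

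All 3 R12 genes fell. Rgs10, a small protein known in mice as a brake on macrophage and microglial activation, had 11.7, 14.8 and 15.1 CPM under pressure, against 28.5, 33.01 and 30.3 CPM in controls. The highest pressure value lay well below the lowest control value (15.1 against 28.5 CPM). Its log2 fold change was -1.15 ± 0.12 (95% interval -1.41 to -0.88; edgeR adjusted p = 1.28e-05). Of the 8 macrophage markers, 2 rose (Csf1r, log2 fold change 0.39, and Marco, 0.21), 2 fell (Vsig4, -0.57, and Cd5l, -0.44) and 4 did not pass. The 6 dendritic cell markers summed to 18.99 to 19.5 CPM under pressure and 36.5 to 41.01 CPM in controls, but they did not move as one. Clec9a fell to 1.43 ± 0.236 CPM under pressure, against 19.5 ± 1.33 CPM in controls, Xcr1 rose to 1.16 ± 0.485 CPM under pressure, against 0.281 ± 0.190 CPM in controls (SD, n = 3 each), and Zbtb46, at 16.2 CPM under pressure and 18.04 CPM in controls, did not pass. Xcr1 met the count filter only through the pressure libraries. The part of these cells in the Rgs10 result was not tested.

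Rgs12, a large scaffold with Ras-binding and GoLoco motifs beside its RGS domain, had the smallest of the called changes. It stood at 28.1, 23.9 and 28.5 CPM under pressure, against 40.7, 38.3 and 37.4 CPM in controls, without overlap. The log2 fold change was -0.53 ± 0.097 (95% interval -0.75 to -0.32; edgeR adjusted p = 0.000602). Rgs14, built on the same plan as Rgs12 and known for its role in hippocampal neurons, was near the lower limit of the test. It was counted 7, 8 and 5 times under pressure and 26, 22 and 21 times in controls, or 0.436, 0.486 and 0.409 CPM under pressure against 1.299, 1.17 and 1.39 CPM in controls. The groups were apart, with a log2 fold change of -1.504 ± 0.29 and a wide 95% interval of -2.15 to -0.85 (edgeR adjusted p = 0.000961). Rgs14 met the count filter only through the control libraries, where it was high. Without that filter it was also called lower (-1.52; edgeR adjusted p = 0.00114).

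Rgs19, first described as a partner of a Gi alpha subunit on vesicle membranes, had the smallest p of the genes that fell. Its level was 16.4, 15.4 and 16.2 CPM under pressure, against 34.6, 38.5 and 37.4 CPM in controls. The log2 fold change was -1.20 ± 0.093 (95% interval -1.41 to -0.99; edgeR adjusted p = 1.69e-06), a 2.30-fold lower level. The ratio of Rgs2 counts to Rgs19 counts, again within a library, was 2.43, 2.28 and 1.80 under pressure and 0.286, 0.323 and 0.345 in controls. Rgs2 thus had fewer counts than Rgs19 in each control library and more in each pressure library.

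**Figure D2:**
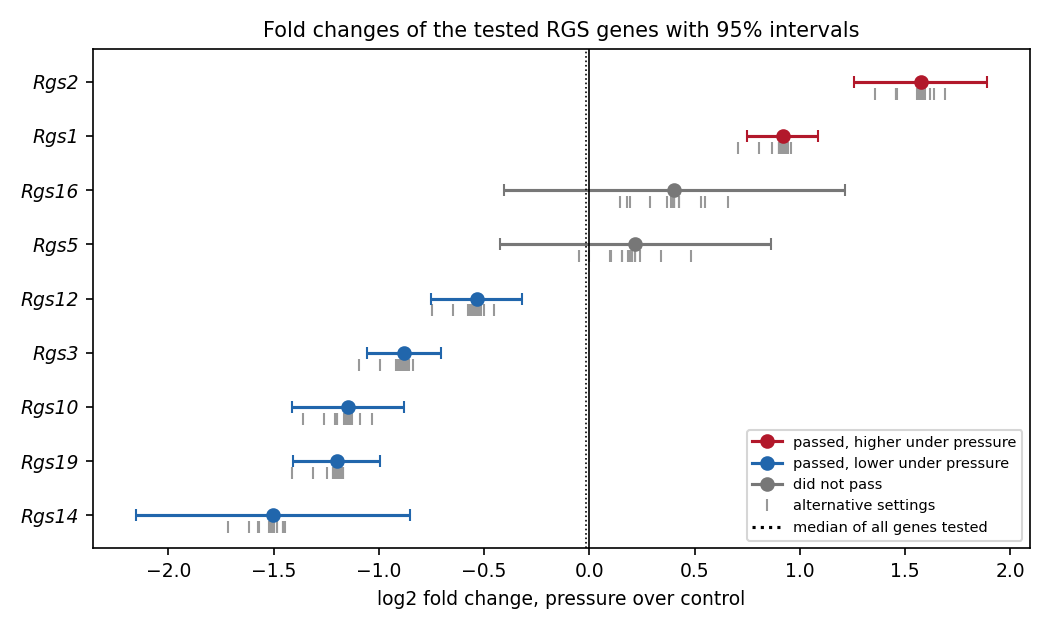
Log2 fold change, pressure over control (horizontal axis), for the 9 RGS genes tested, with 95% intervals; grey ticks give the value under each alternative setting and the dotted line the median of all genes tested (-0.015). The intervals of Rgs2 and Rgs1 lie above 0, those of Rgs12, Rgs3, Rgs10, Rgs19 and Rgs14 below 0, and those of Rgs16 and Rgs5 span 0.

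Levels of different RGS genes were compared per length (CPM per kb of annotated exon in GENCODE M21). Under pressure the order of mean levels was Rgs1, Rgs2, Rgs10, Rgs19, Rgs3, Rgs12, Rgs5, Rgs16, Rgs4 and Rgs14. In controls it was Rgs1, Rgs10, Rgs19, Rgs3, Rgs12, Rgs2, Rgs5, Rgs16, Rgs14 and Rgs4. Rgs1 stood at 37.1 ± 2.33 CPM per kb under pressure and 19.6 ± 0.699 in controls, and Rgs2 at 9.58 ± 1.499 under pressure and 3.24 ± 0.444 in controls (SD, n = 3 each). Rgs10 stood at 8.10 ± 1.12 CPM per kb under pressure and 17.9 ± 1.32 in controls. Rgs2 thus moved to rank 2 under pressure, against rank 6 in controls. Neighbours whose ranges overlapped under pressure were Rgs2 with Rgs10, Rgs10 with Rgs19, Rgs5 with Rgs16, Rgs16 with Rgs4, and Rgs4 with Rgs14. In controls these were Rgs1 with Rgs10, Rgs10 with Rgs19, and Rgs16 with Rgs14.

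The summed level of the 10 genes was 69.7 to 72.9 CPM per kb under pressure and 69.4 to 73.2 CPM per kb in controls, and the ranges overlapped. Within that sum, Rgs1 made up 50.4% to 54.4% under pressure and 26.3% to 29.4% in controls. Rgs10, Rgs12, Rgs14 and Rgs19 together made up 25.3% to 28.01% under pressure and 53.7% to 56.5% in controls. The sum depends on the length used, since annotated exons of Rgs1 cover all 6947 bases of its span while its longest protein-coding transcript has 3841. With the longest protein-coding transcript of each gene, a choice made after seeing the data, the sum was 118 to 125 CPM per kb under pressure and 123 to 129 CPM per kb in controls. The Rgs1 share was then 53.8% to 57.2% under pressure and 26.9% to 30.01% in controls. With the longest transcript of any kind, the sum was 96.2 to 101 CPM per kb under pressure and 111 to 117 CPM per kb in controls, and these ranges did not overlap. Without scaling by length, the sum was 394 to 414 CPM under pressure and 341 to 349 CPM in controls. There the pressure range lay above the control range.

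**Figure D3:**
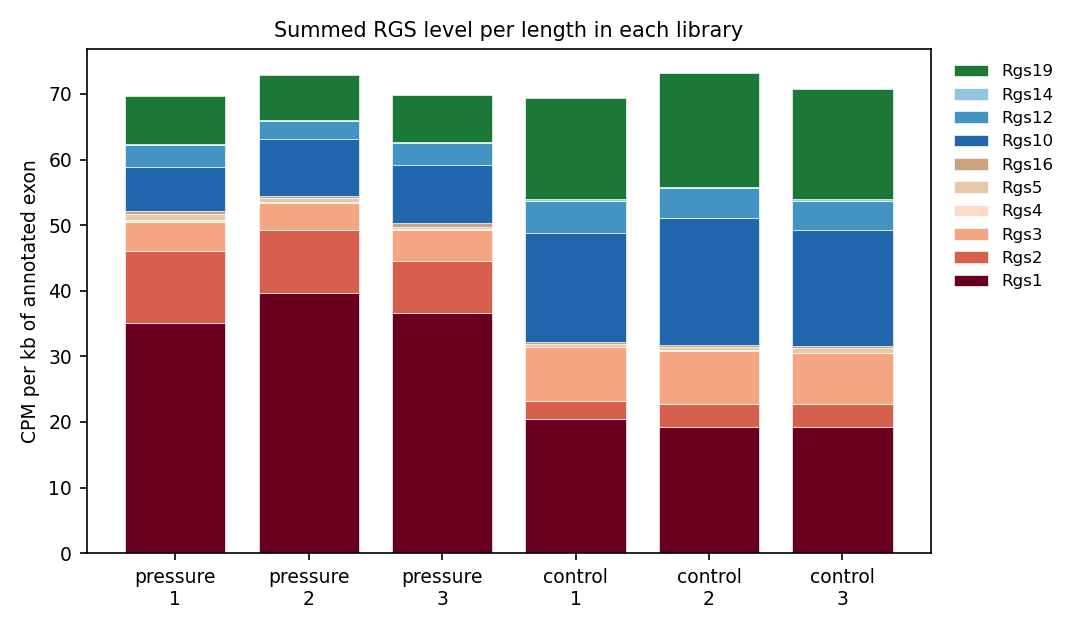
Summed level of the 10 RGS genes in CPM per kb of annotated exon (vertical axis, from 0) in each library, pressure on the left and control on the right, with each gene as a segment. The bars have nearly the same height, 69.4 to 73.2, while the Rgs1 segment takes 50.4% to 54.4% under pressure and 26.3% to 29.4% in controls.

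In the annotation of GRCm38 (the build also named mm10), 5 of the 10 genes lie on chromosome 1. Rgs2 spans 143999338 to 144004161 on the minus strand and Rgs1 spans 144242296 to 144249242 on the same strand. They are 238 kb apart, with Rgs13 between them. Both genes that rose thus lie in one cluster, but their neighbours there were hardly detected: Rgs13 and Rgs18 had 2 counts each over all 6 libraries, and Rgs21 had none. Rgs5 (169655501 to 169695813, plus strand) and Rgs4 (169741477 to 169747642, minus strand) lie 45.7 kb apart further along chromosome 1. The genes that fell are spread over chromosomes 4 (Rgs3), 7 (Rgs10), 5 (Rgs12), 13 (Rgs14) and 2 (Rgs19). All 10 are annotated as protein-coding. Antisense genes overlap 5.50% of the exon bases of Rgs12 and 10.1% of those of Rgs16, and with no strand setting given for the counting, reads of these partners cannot be told apart.

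Promoter sequences, 250 bases before to 50 after an annotated start, were found in RefSeq (GRCm38.p6) for 8 of the 10 genes in 12 windows; Rgs1 and Rgs14 had no entry. The windows of Rgs2 and Rgs4 are printed because each holds more than 1 copy of the core of the cyclic AMP response element, TGACG, a motif bound by CREB and ATF factors. That of Rgs10 is printed beside them as a gene that fell and whose window held none of the motifs searched. The windows of Rgs3 and Rgs5, the first of Rgs12 and 1 of Rgs19 held none either. Whether the motifs go with the direction of change was not tested. Capitals mark the core on either strand (read as CGTCA on the other), and each window is written 5′ to 3′ on the gene's own strand.
Rgs2, chr1:144004100-144004399, minus strand: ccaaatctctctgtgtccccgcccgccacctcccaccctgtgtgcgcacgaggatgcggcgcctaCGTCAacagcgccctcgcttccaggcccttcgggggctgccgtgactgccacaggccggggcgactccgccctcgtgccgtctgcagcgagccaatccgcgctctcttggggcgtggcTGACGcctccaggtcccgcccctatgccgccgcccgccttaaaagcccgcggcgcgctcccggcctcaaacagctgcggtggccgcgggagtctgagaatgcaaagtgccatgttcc
Rgs4, chr1:169747593-169747892, minus strand: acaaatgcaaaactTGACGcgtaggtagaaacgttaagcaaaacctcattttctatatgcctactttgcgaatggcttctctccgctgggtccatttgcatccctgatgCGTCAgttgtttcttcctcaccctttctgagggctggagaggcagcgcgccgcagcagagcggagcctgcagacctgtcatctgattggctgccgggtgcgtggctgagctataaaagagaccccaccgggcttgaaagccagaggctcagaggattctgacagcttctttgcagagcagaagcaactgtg
Rgs10, chr7:128418123-128418422, minus strand: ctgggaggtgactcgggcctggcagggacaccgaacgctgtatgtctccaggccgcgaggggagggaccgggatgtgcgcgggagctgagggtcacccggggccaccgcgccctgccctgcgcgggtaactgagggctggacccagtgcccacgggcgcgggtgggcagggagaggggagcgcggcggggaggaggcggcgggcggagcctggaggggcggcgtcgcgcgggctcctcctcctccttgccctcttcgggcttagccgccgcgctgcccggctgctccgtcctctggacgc

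In the Rgs2 window, the core lay at -185 to -181 and at -67 to -63 relative to the start. In the Rgs4 window it lay at -236 to -232 and at -141 to -137. At least 2 copies were present in 5.01% of all 32851 promoter windows, and at least 1 copy in 20.8%. The complete 8-base element TGACGTCA, found in 1.79% of all windows, was in none of the 12. Among the windows of the genes that fell, the second start of Rgs12 held TGACG, an AP-1 motif (TGANTCA, in 7.81% of all windows) and an NF-kB motif (in 8.46%), and one start of Rgs19 held an E-box (CACGTG, in 7.15%). The hypoxia response element core, GCGTG or ACGTG, was in the windows of Rgs2, Rgs16, Rgs4 and in 2 of the 3 of Rgs19, and in 43.8% of all windows; it overlaps the E-box in Rgs19. The ATF4 element TTGCATCA (0.895% of all windows) and the D-box TTATGNAA (3.38%) were in none. All motifs were searched on both strands. The Rgs10 window had 76.0% G and C and the Rgs2 window 70.0%, against a median of 52.7% over all windows. These matches describe letters in a window and no binding was measured.

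Other genes with an RGS domain, a list of 20 that includes the axins and sorting nexins, had 9 tested members, of which 1 rose and 6 fell (median log2 fold change -0.40). Over all genes tested, 33.7% were higher, 35.1% lower and 68.8% called, which is the background for this and each later list. Axin1, a scaffold of the beta-catenin destruction complex, rose to 91.5 ± 8.98 CPM under pressure, against 48.95 ± 2.44 CPM in controls (log2 fold change 0.90 ± 0.091; edgeR adjusted p = 9.67e-06). The sorting nexin genes Snx14 and Snx13 fell by 1.00 and 0.84 on the log2 scale. None of the 11 remaining numbered RGS genes on that list had enough counts for the test. Of those, the RZ genes Rgs17 and Rgs20 were counted more often under pressure: Rgs17 had 10.05, 12.05 and 11 counts under pressure and 6, 3.05 and 2 in controls, and Rgs20 had 8.16, 8 and 4.18 counts under pressure and 0, 0 and 2 in controls. Without the low-count filter both were called (edgeR adjusted p = 0.00592 for Rgs17 and 0.00452 for Rgs20), as they were by DESeq2 (adjusted p = 0.0183 for Rgs17 and 0.016 for Rgs20). Rgs17 also met the filter and was called in 5 of the 6 fits that left out 1 library (edgeR adjusted p between 0.00489 and 0.0171), and did not meet the filter without pressure replicate 2. In those 5 fits Rgs17 met the filter only through the pressure libraries, where it was high, so the calls are no separate support for a rise. Rgs6 and Rgs21 had 0 counts in every library, which allows a level of up to 0.150 to 0.246 CPM in a library (3 counts, counting error only).

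Among the partners of R7-type RGS proteins, Rgs7bp, which anchors them at the membrane, had 8.97, 8.02 and 6.47 CPM under pressure, against 0.599, 0.587 and 1.06 CPM in controls. This rise of 3.42 ± 0.24 (log2; edgeR adjusted p = 9.31e-07) exceeded that of any of the 9 RGS genes tested. The R7 genes themselves (Rgs6, Rgs7, Rgs9 and Rgs11) had at most 12 counts in a library. Gnb5, the beta subunit that pairs with R7 proteins, stood at 3.83 ± 0.663 CPM under pressure and 4.57 ± 0.748 CPM in controls and did not pass (log2 fold change -0.26, edgeR adjusted p = 0.231); with library totals only it was called lower (-0.48, edgeR adjusted p = 0.046).

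The substrates of RGS proteins moved in both directions. Of 12 G-alpha genes tested, 4 rose and 4 fell with TMM scaling, and 3 rose and 7 fell with library totals only. With TMM scaling, 33.7% of all genes tested were higher and 35.1% lower. With library totals only, 3129 of all 12892 genes tested were higher and 5887 lower. The Gi-class genes parted: Gnai1 was at 13.9 ± 2.84 CPM under pressure and 6.02 ± 0.706 CPM in controls (log2 fold change 1.21 ± 0.17; edgeR adjusted p = 9.13e-05), whereas Gnai2 was at 217 ± 6.38 CPM under pressure and 382 ± 18.1 CPM in controls (-0.82 ± 0.070; edgeR adjusted p = 3.04e-06). Gnai3 stood at 254 CPM under pressure and 263 CPM in controls and did not pass (-0.047; edgeR adjusted p = 0.585). Gnao1, also of the Gi class, fell (-0.83; edgeR adjusted p = 0.00244). Genes of the Gq class also differed: Gna11 rose by 0.54 ± 0.082 and Gnaq by 0.41 ± 0.094. Gna15 fell close to the threshold (-0.32; edgeR adjusted p = 0.0478), and Gna14 did not pass (-0.74; edgeR adjusted p = 0.136). Of 9 G-beta and G-gamma genes tested, 2 rose and 2 fell (0 and 3 with library totals only). Gnb4 and Gng11 fell by 1.00 and 0.62 on the log2 scale, and Gng5 rose by 0.37, which did not pass once TMM factors were left out (0.15, edgeR adjusted p = 0.12).

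Receptor kinases and arrestins, which silence receptors upstream of the G protein, had 7 tested genes, of which 1 rose and 6 fell (median log2 fold change -0.73). Among all genes tested, 33.7% were higher and 35.1% lower. Grk5 rose to 44.1 ± 2.27 CPM under pressure, against 19.8 ± 0.253 CPM in controls (log2 fold change 1.15 ± 0.087; edgeR adjusted p = 1.45e-06). The arrestin genes Arrb1 and Arrb2 fell by 0.73 and 0.88 on the log2 scale. Exchange factors and GoLoco proteins, which act on alpha subunits without a receptor, gave 3 higher and 2 lower of 6 tested (1 and 3 with library totals only or upper-quartile factors). Leaving out pressure replicate 1, pressure replicate 2 or control replicate 3 each gave 1 higher and 2 lower. Over all 12892 genes tested, library totals only gave 3129 higher and 5887 lower, and upper-quartile factors gave 3629 higher and 5188 lower. Ccdc88c was at 25.2, 18.4 and 10.3 CPM under pressure, against 2.35, 2.93 and 3.50 CPM in controls (2.65 ± 0.30; edgeR adjusted p = 2.32e-05), while Gpsm3 and Gpsm2 fell by 1.17 and 1.10 on the log2 scale.

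A list of G-protein effectors and potassium channel genes had 12 tested genes, of which 1 rose and 6 fell (median log2 fold change -0.30). Those that fell include Kcnj2 (-2.10; edgeR adjusted p = 9.87e-06), whose channel is not of the G-protein-gated group. The gated channel genes Kcnj3, Kcnj5, Kcnj6 and Kcnj9 had too few counts for the test. The phospholipase C beta genes, which act downstream of Gq, differed among themselves. Plcb3 stood at 16.6, 12.6 and 14.1 CPM under pressure, against 69.8, 63.5 and 65.6 CPM in controls (-2.20 ± 0.11; edgeR adjusted p = 1.46e-07). Plcb2 fell by 2.38 on the log2 scale, and Plcb1 rose by 2.37 ± 0.22, at 4.13 ± 0.333 CPM under pressure and 0.786 ± 0.148 CPM in controls. The genes that remove RGS4, RGS5 and RGS16 proteins in an oxygen-dependent way, the N-degron list, had 3 of 7 higher (Metap2, Metap1 and Ubr4 by 0.62, 0.68 and 0.63) and 0 lower; with library totals only, or upper-quartile factors, 4 were lower. Ado, the thiol dioxygenase that oxidises the N-terminal cysteine, stood at 45.9 ± 3.39 CPM under pressure and 51.01 ± 3.06 CPM in controls and did not pass (log2 fold change -0.16, edgeR adjusted p = 0.141). It was called lower with upper-quartile factors (-0.27, edgeR adjusted p = 0.029), with library totals only (-0.37, edgeR adjusted p = 0.0044) and without pressure replicate 3 (-0.21, edgeR adjusted p = 0.0225). With TMM scaling, 33.7% of all genes tested were higher, 35.1% lower and 68.8% called. Of the same 12892 genes, 3129 were higher and 5887 lower with library totals only. With upper-quartile factors 3629 were higher and 5188 lower.

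**Figure D4:**
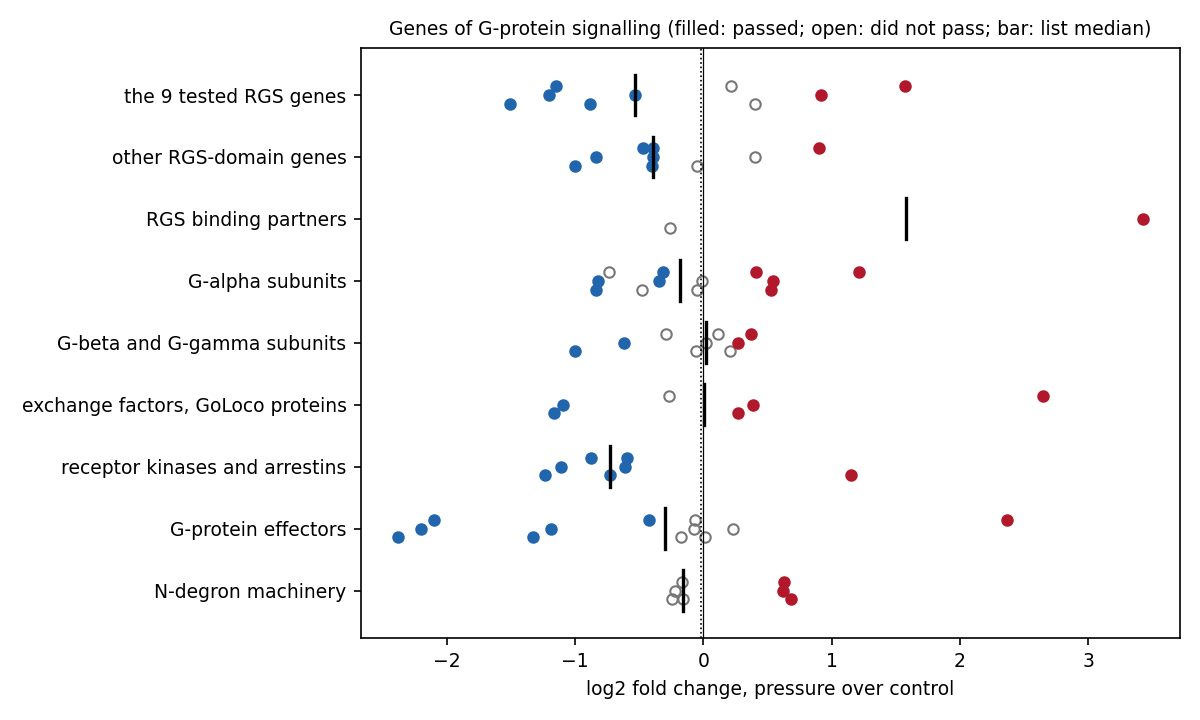
Log2 fold change, pressure over control (horizontal axis), of each tested gene in the lists of G-protein signalling; filled points passed an adjusted p of 0.05 (red higher, blue lower), open points did not, black bars are list medians and the dotted line is the median of all genes tested. Rgs7bp, Ccdc88c and Plcb1 lie furthest to the right (3.42, 2.65 and 2.37), and Plcb2 and Plcb3 furthest to the left (-2.38 and -2.20).

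The genes whose profile over the 6 libraries was nearest to that of Rgs2 were Nifk, Dnajb9 and Ccrn4l, at Euclidean distances of 0.227, 0.237 and 0.243 between mean-centred log2 CPM values, among 10115 genes with a mean of at least 5 CPM. For Rgs14, the called gene with the largest fall, they were Vwa5a, Gpr89 and Tm6sf1, at 0.0699, 0.111 and 0.143. All profiles share the difference between groups and the same 6 libraries, and the Rgs14 profile rests on 5 to 26 counts per library.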

How the data were processed

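Per the labels' protocols, stranded mRNA libraries gave single reads of 101 bases (Illumina NovaSeq). The submitters' processing notes name TopHat2 2.2.1, Cufflinks 2.2.1 and mm10; no source used here gives the counting tool, its strand setting or its annotation. Values deposited by the authors are expected counts per gene symbol in each sample, some with fractions, which were rounded to whole numbers. Libraries were grouped by title. Genes passing filterByExpr (minimum count 10, minimum total 15) were fitted in edgeR 4.0.16 (R 4.3.3) with TMM factors, without covariates, two-sided, and adjusted over 12892 genes with a threshold of 0.05. This test was checked on simulated counts in which far fewer genes changed than were called here, so that check does not bear on the scaling. Standard errors are the log2 fold change divided by the square root of F. Depth limits genes such as Rgs4 and Rgs14. A gene with few counts can meet the filter through 1 group only, where it is high. The direction of its call is then partly set by the filter. Alternatives were DESeq2 1.42.0, limma-voom (limma 3.58.1), 3 other scalings, other filters and thresholds, robust dispersion, a block on replicate number, each library left out, and other gene lengths.

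The members and gene lists were chosen with earlier results of these data known, so no list was tested as a set. Genes named are all members, up to 3 called genes of each list with the smallest p, up to 2 abundant called genes of a marker list, the nearest profiles, and genes singled out after their values were seen (Rgs6, Rgs7, Rgs9, Rgs11, Rgs13, Rgs17, Rgs18, Rgs20, Rgs21, Gnb5, Gnai3, Gnao1, Gnaq, Gna14, Gna15, Kcnj2, Kcnj3, Kcnj5, Kcnj6, Kcnj9, Ado, Zbtb46, Vsig4, Csf1r, and the markers at 0).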

Additional observations from a re-analysis of the deposited data

How the results depend on the processing

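The 7 RGS calls kept their direction and their side of the threshold under DESeq2, limma-voom, every scaling, the robust fit, an adjusted p under 0.01 and each library left out; a minimum mean of 5 CPM removed Rgs14, Rgs5 and Rgs16 from the test and left 6 called. Requiring a log2 fold change of size 1 or more left 4 members called (Rgs2 higher; Rgs10, Rgs14 and Rgs19 lower), so Rgs1 (0.92), Rgs3 (-0.88) and Rgs12 (-0.53) were lost, and 3006 of all genes were called; by construction it also left 1 other RGS-domain gene, 1 G-alpha gene, 0 G-beta and G-gamma genes, 3 exchange factors, 3 kinases and arrestins and 0 N-degron genes. The Rgs5 estimate, never called, lay between -0.049 (without pressure replicate 1) and 0.48 (without pressure replicate 3) over the left-out libraries. Leaving out 1 library gave 7981 to 9746 called genes, 3 to 5 exchange factors and GoLoco genes (3 also at an adjusted p under 0.01) and 7 RGS members each time. Of the binding partners, library totals only called 2 and a minimum mean of 5 CPM called 0. N-degron genes called were 7 with upper-quartile factors and with library totals only, and 5 without the low-count filter. These scalings moved the median log2 fold change of all genes by -0.11 (upper-quartile factors) and -0.21 (library totals only). Ado moved from -0.16 to -0.27 and -0.37 under them. Why more were called without the filter was not tested.

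With the longest transcript as length, the mean summed level was 98.4 CPM per kb under pressure and 114 in controls and the Rgs1 share 44.8% under pressure and 20.6% in controls; under pressure Rgs10 ranked 2 and Rgs2 3, and in controls Rgs10 ranked 1, Rgs19 2, Rgs1 3, Rgs14 8 and Rgs16 9. With the longest protein-coding transcript the sums were 121 under pressure and 126 in controls, and the Rgs1 share under pressure 55.2%; Rgs10 ranked 2 and Rgs2 3 under pressure, and Rgs14 8 and Rgs16 9 in controls. Whether the ranges of the summed level overlap thus depends on the length chosen.

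No source used here says whether same-numbered pressure and control samples shared an animal or culture. Deviations from the group means correlated at 0.17, -0.30 and -0.18 for numbers 1, 2 and 3. Unlike-numbered samples gave -0.22 to 0.37. With 3 samples per group these values depend on each other, so they cannot decide whether the numbers mark pairs. With the replicate number as a block, 8384 genes and again 7 RGS members were called.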
